A study of Mus musculus with 8 samples.

Results

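The regulators of G protein signalling (RGS) described here were 9 genes, Rgs1, Rgs2, Rgs3, Rgs10, Rgs13, Rgs14, Rgs16, Rgs18 and Rgs19, taken by symbol from a matrix of 24902 gene symbols. They were selected on earlier results of these data, in which Rgs16 had been noticed for a high level in the Eµ-TCL1 mouse, so every value that sets this mouse against the others is a description without a test. The matrix held bulk low-input RNA-seq of B cells isolated from the spleen of 8 C57BL/6N mice at early removal criteria (ERC), the humane endpoint of the study, and the age at ERC is not given in the labels. Of these mice, 4 were Eµ-PRMT5, 3 were Eµ-PRMT5/TCL1 and 1 was Eµ-TCL1. The labels name Eµ-PRMT5 mouse 2 E4474 (L25), mouse 3 L31 and mouse 4 L32. The study's methods list E4474 as a founder. Its histology describes anaplastic large lymphocytes with bland histiocytes in L31. In L32 it describes sheets of small lymphocytes, read as small lymphocytic lymphoma or chronic lymphocytic leukemia. Mice of this group thus differed in disease. The PRMT5 transgene encodes the human arginine methyltransferase, and its immunoglobulin heavy chain promoter and Eµ enhancer place it in B cells from the immature stage on. Eµ-TCL1 mice carry human TCL1 under the same kind of control and are a model of chronic lymphocytic leukemia, and Eµ-PRMT5/TCL1 mice carry both transgenes. The double transgenic cross was made to learn what PRMT5 contributes to the disease of Eµ-TCL1 mice. The study's methods describe more Eµ-TCL1 mice than the 1 in the matrix used here, so that group has no replicate and the comparison tested is Eµ-PRMT5/TCL1 against Eµ-PRMT5.

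G protein-coupled receptors act through a Gα subunit that is active while it holds GTP, and RGS proteins end the signal because their RGS domain speeds the hydrolysis of that GTP. In B cells the best known of these signals come from chemokine receptors coupled to Gαi, which guide the cells into follicles and germinal centres. RGS proteins set how strongly and for how long B cells answer a chemokine, and several of their genes are induced when lymphocytes are activated.

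Counts on genes totalled 5484833, 6471716, 3987989 and 10252426 in Eµ-PRMT5 mice 1 to 4. They totalled 6232700, 7290268 and 6686631 in Eµ-PRMT5/TCL1 mice 1 to 3, and the Eµ-TCL1 mouse had 3356297. Eµ-PRMT5 mouse 1 stood apart, with a value for 16379 symbols where the other 7 libraries had between 20411 and 21475. All 9 RGS genes had a value in every library and passed the filter on low counts, as did 13173 of the symbols. Levels are given as CPM, read counts scaled to a common library size with edgeR's TMM factors. The B cell marker Cd79a measured between 411 and 2115 CPM in the 8 mice. RNA of other cells was present too, since 12 neutrophil markers summed to between 491 and 8930 CPM. In bulk RNA, fewer cells of a type and less RNA per cell cannot be told apart.

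The 9 genes lie on 5 chromosomes of GRCm38, and 5 of them are on chromosome 1. Rgs2 (143999338 to 144004161), Rgs13 (144138654 to 144177372), Rgs1 (144242296 to 144249242) and Rgs18 (144752683 to 144775435) share the minus strand with Rgs21, in a cluster of 5 RGS genes that spans 776 kb of chromosome 1. Rgs16 (153740349 to 153745468, plus strand) stands outside this cluster, 40 kb after Rgs8. Its exons share 236 bases, 10.1% of their length, with the antisense gene Gm28513. Whether counting used the strand is not stated, so reads of Gm28513 in those bases cannot be told apart from reads of Rgs16.

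The promoters of Rgs16 and Rgs13 are shown because these were the members with the widest range of levels over the 8 mice, 40.7-fold for Rgs16 and 56.1-fold for Rgs13. They lie apart on the same chromosome and differ in base composition. RefSeq's promoter table (GRCm38.p6) held 6 of the 9 members, and each sequence is the 250 bases before the RefSeq start, 5′ to 3′ on the gene's strand. The Rgs16 window is chr1:153740103-153740352 (plus strand) and the Rgs13 window is chr1:144177373-144177622 (minus strand). Capitals mark the matches to the motifs described after them.
Rgs16: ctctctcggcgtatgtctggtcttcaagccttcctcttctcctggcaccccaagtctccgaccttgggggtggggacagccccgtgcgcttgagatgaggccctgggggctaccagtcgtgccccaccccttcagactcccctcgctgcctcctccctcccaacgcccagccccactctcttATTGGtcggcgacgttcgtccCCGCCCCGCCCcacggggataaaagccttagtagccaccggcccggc
Rgs13: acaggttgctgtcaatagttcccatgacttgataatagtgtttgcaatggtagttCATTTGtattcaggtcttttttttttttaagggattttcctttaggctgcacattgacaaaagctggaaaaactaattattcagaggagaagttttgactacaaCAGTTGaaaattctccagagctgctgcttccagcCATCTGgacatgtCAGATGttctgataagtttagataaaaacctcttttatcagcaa

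Both strands of these windows were searched for 8 motifs, chosen together with the 2 promoters after the levels were seen. The Rgs16 window was 66.4% GC with 17 CpG, against a median of 52.4% GC over all promoters of the table. It held 1 CCAAT box (CCAAT, on the reverse strand as ATTGG, 68 bases before the start), a motif present in 33.8% of 32851 promoters of the same length. It also held 2 GC boxes (GGGCGG, on the reverse strand as CCGCCC, 47 and 42 bases before the start), which overlap by 1 base and are of a kind found in 32.7% of promoters. The Rgs13 window was 36% GC with 0 CpG and held 4 E-boxes (CANNTG, 195, 91, 57 and 44 bases before the start), against at least 1 in 66.2% of promoters. Neither window held the TATA box TATAAA (12.4% of promoters), the octamer ATTTGCAT (1.6%), the AP-1 site TGANTCA (6.75%), the cAMP response element TGACGTCA (1.55%) or the EGR site GCGNGGGCG (4.7%). A match describes the letters of the window and is not evidence that a factor binds there.

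Rgs16 accelerates GTP hydrolysis on Gαi and Gαq and is induced in activated lymphocytes. In Eµ-PRMT5 mice 1 to 4 it measured 4.46, 25.96, 15.0 and 6.57 CPM, from 22, 164, 66 and 57 counts. In Eµ-PRMT5/TCL1 mice 1 to 3 it measured 10.8, 11.9 and 9.22 CPM, from 66, 83 and 60 counts. In the Eµ-TCL1 mouse it measured 182 CPM, from 672 counts (exact 95% binomial interval 168 to 196 CPM, which covers counting error only). The Eµ-TCL1 mouse was above all 7 other mice, 7.0-fold over the next highest, Eµ-PRMT5 mouse 2. The ranges of the replicated groups overlapped, and all 3 Eµ-PRMT5/TCL1 mice lay inside the range of the Eµ-PRMT5 mice. The level in the Eµ-TCL1 mouse was 13.96-fold the mean of the Eµ-PRMT5 mice and 17.1-fold that of the Eµ-PRMT5/TCL1 mice, with log2 ratios of 3.71 and 3.97 at a pseudocount of 1 CPM. These values are those for which Rgs16 was noticed, so they support nothing further.

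**Figure D1:**
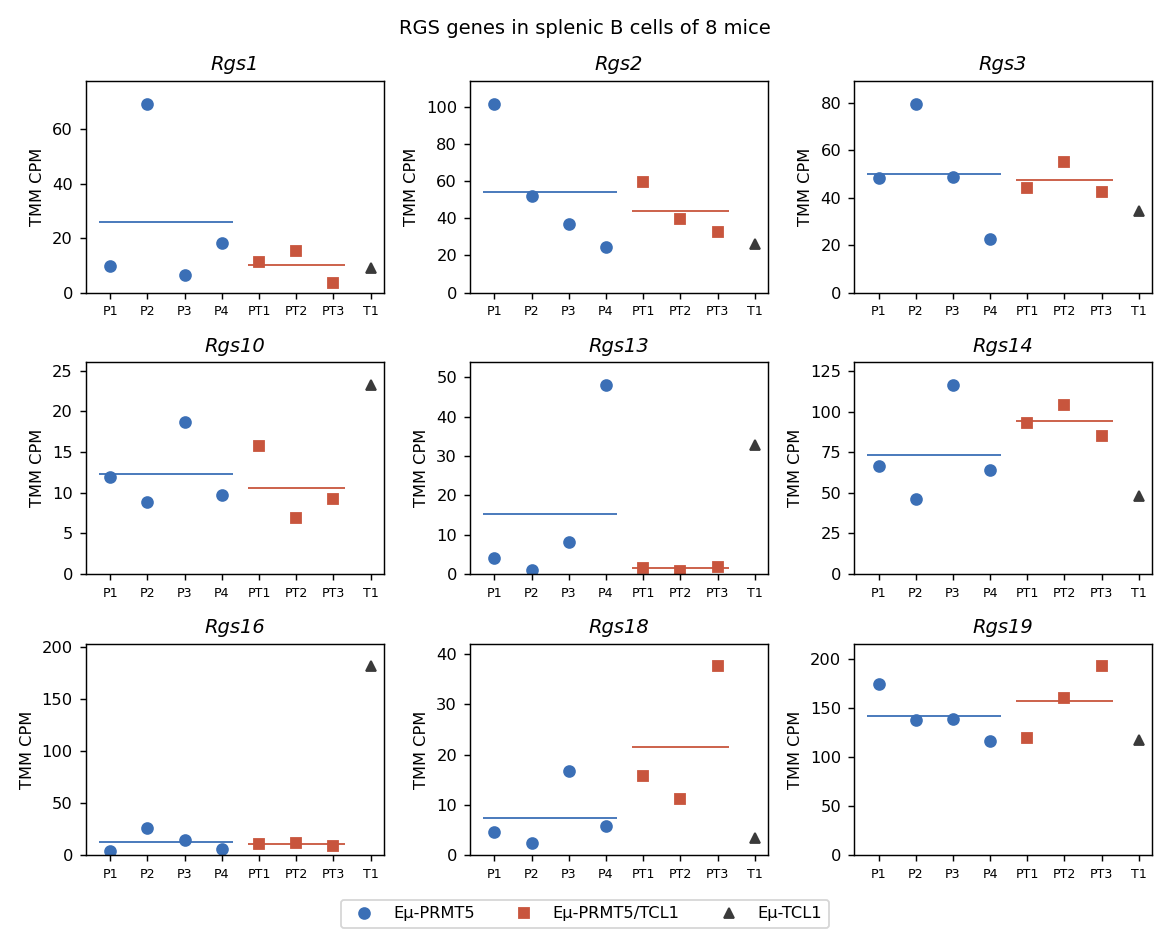
TMM CPM (vertical axis, starting at 0) of each of the 9 RGS genes in Eµ-PRMT5 mice (P1 to P4, circles), Eµ-PRMT5/TCL1 mice (PT1 to PT3, squares) and the Eµ-TCL1 mouse (T1, triangle), with lines at the means of the replicated groups. The Eµ-TCL1 mouse is highest for Rgs10 and Rgs16, and the replicated groups overlap for all 9 genes.

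Against the whole table, the Eµ-TCL1 mouse was above the other 7 mice for 2 of the 9 RGS genes, Rgs10 and Rgs16, and for 21.3% of the 13173 tested genes. It was below them for 0 RGS genes and 14.2% of tested genes. An excess of over 4-fold above the next highest mouse was held by 1 RGS gene, Rgs16, and by 36 tested genes (0.273%), and Rgs16 ranked 10 among tested genes by this excess. Nothing is read from these counts, since the same values chose Rgs16. Whether the Eµ-TCL1 mouse was above, within or below the range of the other 7 was the same for each of the 9 genes with TMM, upper-quartile or library size scaling.

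The patterns most like that of Rgs16 were sought among the 3924 tested genes whose log2 CPM varied at least 0.5 times as much as that of Rgs16. The measure was the root mean square difference of log2 CPM over the 8 mice, each gene centred on its own mean, and its median was 1.51. The 5 closest genes were Ugt1a5 (0.55), Gm17057 (0.68), Gm16835 (0.69), Gm12915 (0.69) and 4930463O16Rik (0.69). Ugt1a5, a gene of the glucuronosyltransferase family, measured 20.01 CPM in the Eµ-TCL1 mouse and between 0.203 and 3.42 CPM in the others. The other 4 reached between 4.33 and 18.7 CPM in the Eµ-TCL1 mouse, levels far under that of Rgs16. Gm17057 and Gm16835 were at 0 CPM in at least 1 other mouse. The search leans on the Eµ-TCL1 value for which Rgs16 was noticed, so it favours genes high in that 1 library. Nothing further is read from these genes. Among the RGS genes that varied enough to be compared, the closest to Rgs16 differed by 1.81.

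Rgs13 is expressed in germinal centre B cells, where it limits the response to the chemokine receptors Cxcr4 and Cxcr5. It measured 4.06, 1.11, 8.21 and 48.1 CPM in Eµ-PRMT5 mice 1 to 4, from 20, 7, 36 and 417 counts. It measured 1.64, 0.858 and 1.84 CPM in Eµ-PRMT5/TCL1 mice 1 to 3, from 10, 6 and 12 counts, and 32.7 CPM in the Eµ-TCL1 mouse, from 121 counts. The Eµ-TCL1 mouse and Eµ-PRMT5 mouse 4 were high and the other 6 mice were low, and the replicated groups overlapped through Eµ-PRMT5 mouse 2. The log2 fold change of Eµ-PRMT5/TCL1 against Eµ-PRMT5 mice was -3.41 (standard error 1.10, adjusted p = 1, edgeR's quasi-likelihood test). Without Eµ-PRMT5 mouse 4 it was -1.60, and the unadjusted p was then no longer under 0.05.

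The germinal centre markers were set beside Rgs13 for the same mice. Of 8 such genes, 5 had a value in every library, and their sum was 42.8, 119, 80.0 and 56.6 CPM in Eµ-PRMT5 mice 1 to 4. The sum was 143, 54.8 and 41.5 CPM in Eµ-PRMT5/TCL1 mice 1 to 3 and 102.5 CPM in the Eµ-TCL1 mouse. Eµ-PRMT5 mouse 4, with the highest Rgs13, had a lower sum than Eµ-PRMT5 mice 2 and 3, and the highest sum was in Eµ-PRMT5/TCL1 mouse 1, whose Rgs13 was low. Per kilobase, Fas was the most abundant of the 5 by its mean over the 8 mice, the measure used for each list, none was at 0 in every library, and the genes that lacked a value in at least 1 library included Gcsam and Basp1. Of the 5, S1pr2 and Mybl1 were highest in the Eµ-TCL1 mouse, while Bcl6, Fas and Mef2b were within the range of the others there. Bcl6 was lowest of all, at 11.9 CPM, in Eµ-PRMT5 mouse 4. Mef2b was also lowest there in CPM, but it had 1 count there and in Eµ-PRMT5 mice 2 and 3. With at most 5 counts in any mouse, Mef2b is too low to rank the mice. S1pr2 measured 28.5 CPM in that mouse, above the 11.4, 11.2 and 14.4 CPM of Eµ-PRMT5 mice 1 to 3. Fas and Mybl1 were there within the range of Eµ-PRMT5 mice 1 to 3. The part of germinal centre cells in the level of Rgs13 was not tested.

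Rgs1 restrains the movement of B cells toward chemokines and is also high in germinal centre and activated B cells. It measured 9.94, 69.3, 6.38 and 18.1 CPM in Eµ-PRMT5 mice 1 to 4. It measured 11.3, 15.3 and 3.53 CPM in Eµ-PRMT5/TCL1 mice 1 to 3 and 8.92 CPM in the Eµ-TCL1 mouse. Eµ-PRMT5 mouse 2 was high, 3.83-fold over the next mouse, and the other 7 mice overlapped across genotypes. The log2 fold change of Eµ-PRMT5/TCL1 against Eµ-PRMT5 mice was -1.37 (standard error 0.80, adjusted p = 1, edgeR), and it was -0.20 without Eµ-PRMT5 mouse 2. Rgs1 and Rgs13 are 64.9 kb apart, and their highest values were in different mice, from which nothing is read.

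Rgs2 acts mainly on Gαq. It lay between 24.8 and 101.5 CPM in Eµ-PRMT5 mice (53.8 ± 33.6 CPM, SD, n = 4) and between 32.7 and 59.3 CPM in the Eµ-PRMT5/TCL1 group (43.9 ± 13.8 CPM, SD, n = 3). The Eµ-TCL1 mouse had 26.2 CPM, and the highest value belonged to Eµ-PRMT5 mouse 1, the library with the fewest symbols. Its log2 fold change was -0.29 (standard error 0.47), and 0.23 without that mouse.

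Rgs3 acts on Gαi and Gαq and has long isoforms with further domains. It lay between 22.7 and 79.6 CPM in Eµ-PRMT5 mice (49.9 ± 23.3 CPM, SD, n = 4) and between 42.6 and 55.0 CPM in the Eµ-PRMT5/TCL1 group (47.3 ± 6.77 CPM, SD, n = 3), with 34.3 CPM in the Eµ-TCL1 mouse. The difference between the replicated groups was smaller than the spread within either, and its log2 fold change of -0.08 (standard error 0.41) turned to 0.24 without Eµ-PRMT5 mouse 2.

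Rgs18 is known from platelets and megakaryocytes and is restricted to blood cells. It measured 4.67, 2.53, 16.6 and 5.88 CPM in Eµ-PRMT5 mice 1 to 4, from 23, 16, 73 and 51 counts. It measured 15.7, 11.2 and 37.5 CPM in Eµ-PRMT5/TCL1 mice 1 to 3, from 96, 78 and 244 counts, and 3.51 CPM in the Eµ-TCL1 mouse, from 13 counts. Eµ-PRMT5/TCL1 mice had the higher values, but Eµ-PRMT5 mouse 3 exceeded 2 of the 3, so the groups overlapped. The log2 fold change came to 1.54 with a standard error of 0.67 (adjusted p = 1, edgeR). It was 0.86 without Eµ-PRMT5/TCL1 mouse 3 and 2.29 without Eµ-PRMT5 mouse 3.

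Markers of the other blood cells were read in the same mice, because Rgs18 is not a B cell marker. The megakaryocyte and platelet markers, 5 of 10 with a value in every library, summed to 40.8, 52.1, 100.5 and 37.0 CPM in Eµ-PRMT5 mice 1 to 4. They summed to 58.4, 43.5 and 38.1 CPM in Eµ-PRMT5/TCL1 mice 1 to 3 and to 101.9 CPM in the Eµ-TCL1 mouse. The mouse with the most Rgs18, Eµ-PRMT5/TCL1 mouse 3, was thus near the low end of these sums, and the Eµ-TCL1 mouse, low in Rgs18, was at the top. Gp9 was at 0 in the Eµ-TCL1 mouse only, and Pf4, Ppbp, Gp1bb, Gp6 and Clec1b lacked a value in at least 1 library. Neutrophil markers (12 of 12, Ngp the most abundant per kilobase) summed to 2811, 2381, 491 and 5450 CPM in Eµ-PRMT5 mice and to 8930, 5103 and 672 CPM in Eµ-PRMT5/TCL1 mice, with 702 CPM in the Eµ-TCL1 mouse. Monocyte and macrophage markers (7 of 10 with a value throughout, Ly6c2 the most abundant per kilobase, C1qa, C1qb and C1qc without a value in at least 1 library) summed to 250, 285, 481 and 833 CPM in Eµ-PRMT5 mice and to 1746, 781 and 339 CPM in Eµ-PRMT5/TCL1 mice, with 262 CPM in the Eµ-TCL1 mouse. Both sums were lowest, within the Eµ-PRMT5/TCL1 group, in the mouse with the most Rgs18. Between the groups, the monocyte and macrophage markers had a median log2 fold change of 0.91, the same direction as Rgs18, and the neutrophil markers one of 0.09. The pan-B cell isolation used for these libraries is meant to remove such cells, and their part in the level of Rgs18 was not tested.

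**Figure D2:**
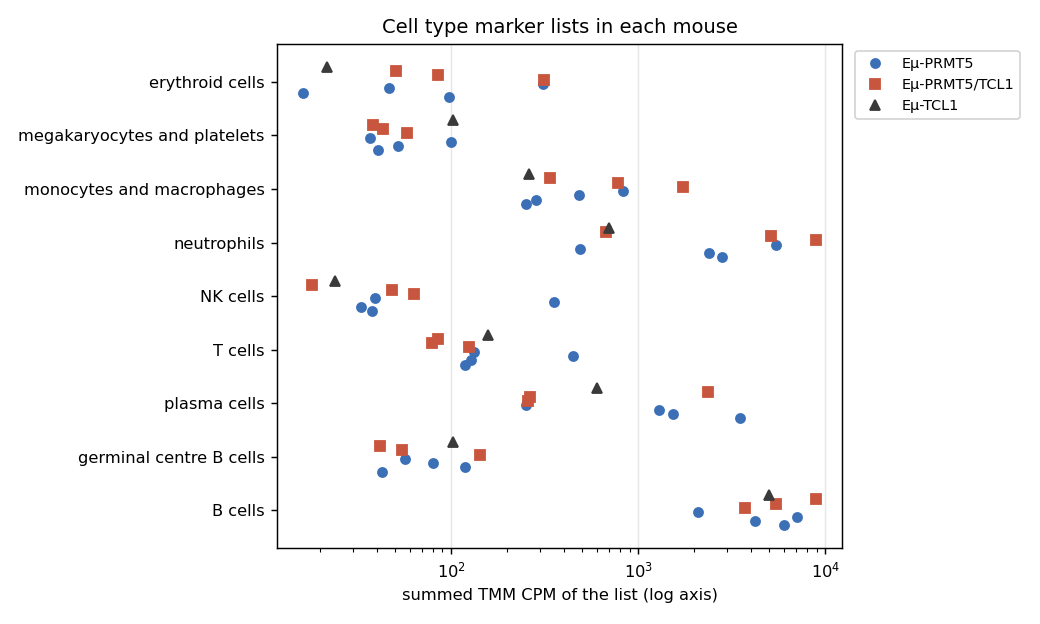
Summed TMM CPM (horizontal log axis) of the markers of 9 cell types with a value in every library, 1 symbol per mouse, circles for Eµ-PRMT5, squares for Eµ-PRMT5/TCL1 and a triangle for Eµ-TCL1. T cell and NK cell markers stand out in 1 Eµ-PRMT5 mouse, and neutrophil markers span from 491 to 8930 CPM.

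T cell and natural killer (NK) cell markers were read as well, since several RGS genes are also expressed in those cells. The T cell markers (7 of 10 with a value throughout, Cd3g the most abundant per kilobase, Cd4, Cd8a and Cd6 without a value in at least 1 library) summed to 451 CPM in Eµ-PRMT5 mouse 3 and to between 79.1 and 157 CPM in the other 7 mice. The NK cell markers (3 of 7, Nkg7 the most abundant per kilobase, Klrb1c, Gzma, Gzmb and Eomes without a value in at least 1 library) summed to 356 CPM in that mouse and to between 17.98 and 63.8 CPM in the others. Rgs14 was highest in the same mouse, and without it the log2 fold change of Rgs14 was 0.67. Plasma cell markers (6 of 6, Jchain the most abundant per kilobase) summed to between 251 and 3519 CPM over the 8 mice. Of these, Prdm1 (210 CPM, others at most 95.2 CPM) and Tnfrsf17 (63.0 CPM, others at most 23.25 CPM) were highest in the Eµ-TCL1 mouse. Sdc1, Jchain, Irf4 and Derl3 were within the range of the others there. The Eµ-TCL1 mouse was highest for 21.3% of all tested genes. Erythroid markers (5 of 8, Hba-a1 the most abundant per kilobase, Alas2 and Epor among those without a value in at least 1 library) summed to between 16.1 and 314 CPM. The 8 B cell markers, all with a value and with Cd79a the most abundant per kilobase, summed to 5988, 4201, 7079 and 2099 CPM in Eµ-PRMT5 mice 1 to 4. They summed to 3716, 5433 and 8964 CPM in Eµ-PRMT5/TCL1 mice 1 to 3 and to 4981 CPM in the Eµ-TCL1 mouse. The lowest sum was in the mouse with the highest Rgs13 and the highest in the mouse with the highest Rgs18 and Rgs19, and the part of B cell content in these levels was not tested.

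Rgs10 and Rgs14 belong to the same subfamily, which prefers Gαi. Rgs10, little more than an RGS domain, measured 11.97, 8.87, 18.7 and 9.69 CPM in Eµ-PRMT5 mice 1 to 4. It measured 15.7, 6.86 and 9.22 CPM in Eµ-PRMT5/TCL1 mice 1 to 3 and 23.3 CPM in the Eµ-TCL1 mouse, from 86 counts. The Eµ-TCL1 mouse was the highest, but only 1.24-fold over Eµ-PRMT5 mouse 3, whose level lies inside the counting interval of the Eµ-TCL1 value (18.6 to 28.7 CPM, exact 95% binomial). Between the replicated groups the log2 fold change was -0.21 (standard error 0.50), and it was 0.06 without Eµ-PRMT5 mouse 3.

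Rgs14 also carries Ras-binding domains and a GoLoco motif that binds inactive Gαi. It measured 66.6, 46.5, 116.5 and 64.3 CPM in Eµ-PRMT5 mice 1 to 4. It measured 93.1, 104 and 85.0 CPM in Eµ-PRMT5/TCL1 mice 1 to 3 and 48.4 CPM in the Eµ-TCL1 mouse. All 3 Eµ-PRMT5/TCL1 mice were above 3 of the 4 Eµ-PRMT5 mice, and Eµ-PRMT5 mouse 3 was above them all. The log2 fold change was 0.36 with a standard error of 0.36.

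Rgs19 is anchored to membranes through a cysteine string and acts on Gαi. It was the steadiest member, with a highest value only 1.65-fold over its lowest, between 117 CPM in Eµ-PRMT5 mouse 4 and 193 CPM in Eµ-PRMT5/TCL1 mouse 3. Eµ-PRMT5 mice averaged 142 ± 23.9 CPM (SD, n = 4) and Eµ-PRMT5/TCL1 mice 158 ± 36.6 CPM (SD, n = 3), with 118 CPM in the Eµ-TCL1 mouse. The log2 fold change was 0.15 (standard error 0.32), and -0.022 without Eµ-PRMT5/TCL1 mouse 3.

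Eµ-PRMT5/TCL1 mice were set against Eµ-PRMT5 mice with edgeR's quasi-likelihood test over 13173 genes, where a call needed an adjusted p under 0.05 and more than a 4-fold change. Of the RGS genes, 0 were called higher and 0 lower. The test called 0 genes of the whole table in either direction (0% each), and the smallest adjusted p of any gene was 0.73. DESeq2 called 3 genes higher and 1 lower, none of them an RGS gene. At an unadjusted p under 0.05, 1 RGS gene was higher, Rgs18, against 126 genes (0.957%) of the table, and 1 was lower, Rgs13, against 160 genes (1.21%). Rgs18 was under that p in 9 of 16 other settings. It was not under it with upper-quartile or library size scaling (log2 fold changes 1.53 and 1.48, against 1.54 in the main fit). Nor was it in a fit of mice 1 to 3 of both groups without a block (1.44). The same held without Eµ-PRMT5 mouse 1, 2 or 4 (1.41, 1.25 and 1.44) or Eµ-PRMT5/TCL1 mouse 3 (0.86). Scaling and single mice thus both decide whether Rgs18 is under that p. Among these settings its fold change was furthest from the main value without Eµ-PRMT5/TCL1 mouse 3. With each mouse left out in turn, the table gave from 77 higher genes (without Eµ-PRMT5/TCL1 mouse 1) to 424 (without Eµ-PRMT5 mouse 3), and from 66 lower genes (without Eµ-PRMT5/TCL1 mouse 2) to 368 (without Eµ-PRMT5 mouse 4). All Eµ-PRMT5/TCL1 mice were above all Eµ-PRMT5 mice for 0 RGS genes and 1.35% of tested genes, and below them for 0 RGS genes and 1.59%. The log2 fold change was above 0 for 3 RGS genes and below 0 for 6, where 40.6% of tested genes were above 0. Its median was -0.21 over the 9 genes and -0.09 over all tested genes. For 5 of the 9, Rgs2, Rgs3, Rgs10, Rgs16 and Rgs19, the fold change was smaller than its standard error. Rgs16, at -0.29 (standard error 0.55), was among them, and its sign turned to 0.30 without Eµ-PRMT5 mouse 2.

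**Figure D3:**
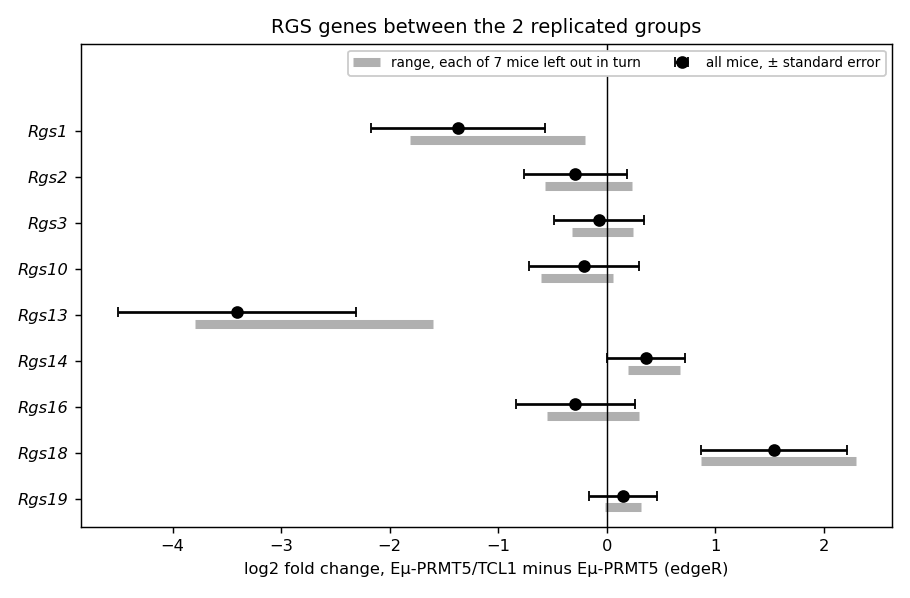
Log2 fold change of Eµ-PRMT5/TCL1 against Eµ-PRMT5 mice for each RGS gene (horizontal axis), with the standard error from edgeR as whiskers and the range of the value when each of the 7 mice is left out in turn as a grey bar. The grey bar of Rgs13 ends at -1.60 and that of Rgs18 starts at 0.86, while the bars of Rgs2, Rgs3, Rgs10, Rgs16 and Rgs19 cross 0.

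Levels of different members were compared as CPM per kilobase of the principal or longest coding transcript. On this scale Rgs19 was the most abundant RGS gene in each of the 8 mice, between 77.4 and 128 CPM per kb. In Eµ-PRMT5 mice the medians per kb followed as Rgs14 (27.8), Rgs2 (14.8), Rgs10 (12.3), Rgs3 (10.35), Rgs16 (4.62), Rgs13 (3.97), Rgs1 (3.65) and Rgs18 (2.60). Only Rgs19 and Rgs14 had ranges that did not overlap among neighbours in this order. In Eµ-PRMT5/TCL1 mice Rgs14 (39.5), Rgs2 (13.1), Rgs10 (10.5) and Rgs3 (9.42) kept these places after Rgs19 (106), and Rgs18 (7.75) came before Rgs16 (4.63), Rgs1 (2.94) and Rgs13 (1.06). There the neighbours without overlap were Rgs19 and Rgs14, Rgs14 and Rgs2, and Rgs18 and Rgs16. In the Eµ-TCL1 mouse Rgs16 reached 77.7 CPM per kb, next to the 78.0 CPM per kb of Rgs19. Per kilobase of all annotated exons, Rgs16 was ahead of Rgs19 in that mouse, at 77.7 against 52.9 CPM per kb. On that length Rgs16 also came before Rgs3 in the medians of Eµ-PRMT5 mice (4.62 and 4.50) and Eµ-PRMT5/TCL1 mice (4.63 and 4.10). Rgs18 then came before Rgs10 and Rgs3 in Eµ-PRMT5/TCL1 mice (7.75, 5.39 and 4.10) and before Rgs1 in Eµ-PRMT5 mice (2.60 and 2.02). The order thus depends on the length used.

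Summed over the 9 genes, the level was 211, 187, 207 and 170 CPM per kb in Eµ-PRMT5 mice 1 to 4. The sum was 182, 198 and 219 CPM per kb in Eµ-PRMT5/TCL1 mice 1 to 3 and 244 CPM per kb in the Eµ-TCL1 mouse. The sums thus varied far less than Rgs13 or Rgs16 did, and the replicated groups overlapped. Rgs16 made up 31.9% of the sum in the Eµ-TCL1 mouse and between 0.906% and 5.95% in the others. Rgs13 made up 18.3% in Eµ-PRMT5 mouse 4, 8.68% in the Eµ-TCL1 mouse and at most 2.56% elsewhere.

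**Figure D4:**
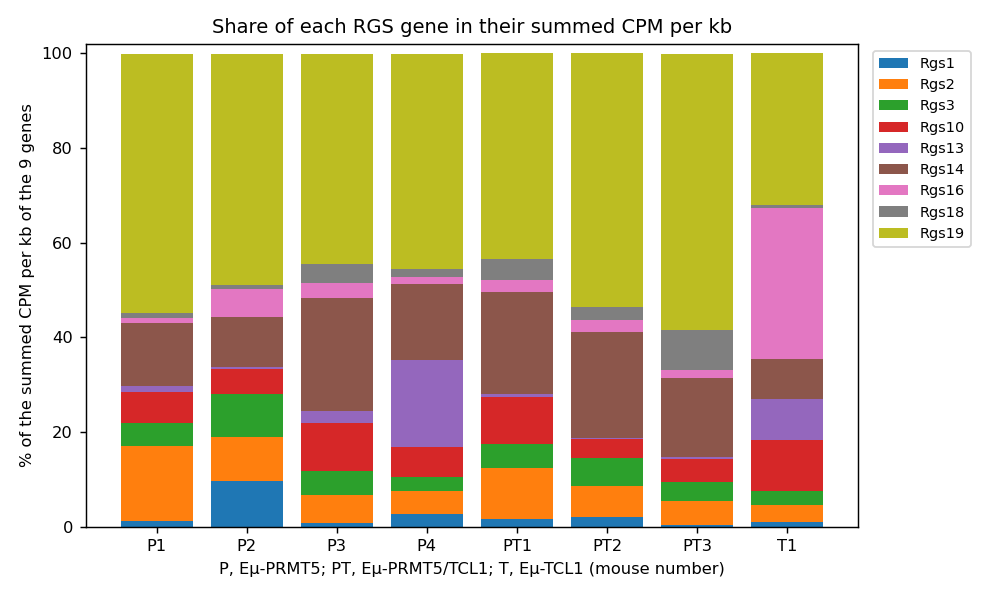
Share (%) of each RGS gene in the summed CPM per kb of the 9 genes (stacked bars), for Eµ-PRMT5 mice (P1 to P4), Eµ-PRMT5/TCL1 mice (PT1 to PT3) and the Eµ-TCL1 mouse (T1). Rgs19 holds between 32% and 58.4%, Rgs16 holds 31.9% in the Eµ-TCL1 mouse and Rgs13 holds 18.3% in Eµ-PRMT5 mouse 4.

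The highest values of the 9 genes fell in 6 different mice, 2 each in Eµ-PRMT5 mouse 2, Eµ-PRMT5/TCL1 mouse 3 and the Eµ-TCL1 mouse, and 1 each in Eµ-PRMT5 mice 1, 3 and 4. Within the chromosome 1 cluster, Rgs2, Rgs13, Rgs1 and Rgs18 were each highest in another mouse. Nothing is read from this spread, since each of the 8 mice also held the highest value of between 5.77% and 21.3% of all tested genes.

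The other RGS symbols of the matrix numbered 12, of which 4 had a value in every library. Rgs12 ranged from 8.32 to 43.1 CPM over the 8 mice and Rgs9 from 1.83 to 31.7 CPM, both lowest in Eµ-PRMT5 mouse 1. Rgs12 was highest in Eµ-PRMT5 mouse 3, whereas Rgs9 was level in that mouse and the Eµ-TCL1 mouse (31.7 and 31.6 CPM). Rgs11 ranged from 3.81 to 15.5 CPM. Rgs20 reached 3.24 CPM in the Eµ-TCL1 mouse, above the other 7, but from only 12 counts. The next highest, Eµ-PRMT5/TCL1 mouse 3, had 2.15 CPM from 14 counts. At an unadjusted p under 0.05, 0 of these 4 were higher and 0 lower (0.957% and 1.21% over all tested genes) in edgeR's test of Eµ-PRMT5/TCL1 against Eµ-PRMT5 mice. Rgs4, Rgs5, Rgs6, Rgs7, Rgs8, Rgs17, Rgs21 and Rgs22 lacked a value in at least 1 library.

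The G proteins on which RGS proteins act were described from lists of genes, with edgeR's adjusted test calling 0 genes in each list. Of 10 tested Gα subunits, 0 reached an unadjusted p under 0.05 in either direction (0.957% higher and 1.21% lower over all tested genes), with a median log2 fold change of -0.12. Gnai2, a Gαi subunit that couples to chemokine receptors, was the most abundant of them per kilobase and measured between 200 and 450 CPM. The Eµ-TCL1 mouse was outside the range of the other 7 for 0 of these 10 genes, where it was above for 21.3% and below for 14.2% of all tested genes. Of 12 tested βγ subunits, 1 was higher at an unadjusted p under 0.05, Gngt2 (log2 fold change 0.90, standard error 0.34) and 0 were lower, where all tested genes gave 0.957% and 1.21%. The median log2 fold change of these 12 genes was 0.19, beside -0.09 for all tested genes. Gnb3 had the highest mean over the 8 mice of the βγ genes per kilobase but not the highest level in each mouse. It measured 27.2, 6.49 and 32.8 CPM in Eµ-PRMT5 mice 1, 2 and 4, where Gnb1 was higher per kilobase, and up to 896 CPM in Eµ-PRMT5/TCL1 mouse 3.

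Among 21 tested G protein-coupled receptors of B cells, an unadjusted p under 0.05 was reached by 0 that were higher in Eµ-PRMT5/TCL1 mice and by 3 that were lower (0.957% and 1.21% over all tested genes), with a median log2 fold change of -0.07. The 3 were Cxcr4, the receptor that holds cells near Cxcl12, at -2.28 (standard error 0.89), Ccr6 at -2.72 (standard error 0.94) and the prostaglandin receptor Ptger4 at -1.93 (standard error 0.81). Cxcr4 measured 242, 99.9, 7.52 and 37.1 CPM in Eµ-PRMT5 mice 1 to 4, 33.1, 18.2 and 8.30 CPM in Eµ-PRMT5/TCL1 mice 1 to 3 and 78.4 CPM in the Eµ-TCL1 mouse. The groups overlapped, with Eµ-PRMT5 mouse 3 the lowest of all. Ccr6 measured 26.6, 58.4, 15.5 and 1.499 CPM in Eµ-PRMT5 mice 1 to 4 and 6.39, 1.86 and 3.38 CPM in Eµ-PRMT5/TCL1 mice 1 to 3. Ptger4 measured 19.7, 151, 21.7 and 11.2 CPM in Eµ-PRMT5 mice 1 to 4 and 18.5, 9.15 and 12.3 CPM in Eµ-PRMT5/TCL1 mice 1 to 3. For Ptger4, Eµ-PRMT5 mouse 2 was 6.96-fold over the next mouse, and the other mice of both groups overlapped.

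Markers of other cells were read in the same test, where an unadjusted p under 0.05 was reached by 0.957% of all tested genes as higher and by 1.21% as lower. Of 7 tested T cell markers 0 were higher and 3 lower by that measure (Cd3d, Cd3e and Tcf7). All 7 log2 fold changes were below 0, with a median of -1.54. The sum of these markers was 451 CPM in Eµ-PRMT5 mouse 3 and 119, 128 and 132.5 CPM in Eµ-PRMT5 mice 1, 2 and 4. In Eµ-PRMT5/TCL1 mice 1 to 3 it was 124, 79.1 and 85.6 CPM. Only for Tcf7 did the 2 groups not overlap. The 3 tested NK cell markers were also all below 0, with a median of -1.31 and 1 at an unadjusted p under 0.05. Their sum was 356 CPM in Eµ-PRMT5 mouse 3 and 37.75, 32.9 and 39.2 CPM in Eµ-PRMT5 mice 1, 2 and 4. In Eµ-PRMT5/TCL1 mice 1 to 3 it was 63.8, 48.2 and 17.98 CPM. Nkg7, the gene at the median, measured 279 CPM in Eµ-PRMT5 mouse 3. In Eµ-PRMT5/TCL1 mice 1 and 2 it was above Eµ-PRMT5 mice 1, 2 and 4, while Prf1 and Ncr1 were not. Among 6 plasma cell markers, 1 was lower at an unadjusted p under 0.05, Sdc1 at -2.50, and the median was -0.62. No list was tested as a whole, and the medians of the lists did not all lie below 0. Of 7 monocyte and macrophage markers, 6 were above 0 with a median of 0.91, and 1 was higher at an unadjusted p under 0.05, Cd14 at 2.05. Of 12 neutrophil markers, 1 was higher by that measure, Mpo at 2.13, and 1 lower, Mmp8 at -2.03, with a median of 0.09. The platelet lineage had few genes to read. Of 5 megakaryocyte and platelet markers 1 was lower, Gp9 at -1.59, with a median of -0.34. The B cell, germinal centre and erythroid lists had 0 higher and 0 lower, with medians of 0.23, 0.19 and 0.16. The part of these cells in the receptor values was not tested.

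Ccr7, which draws B cells to the T zone, had the highest mean over the 8 mice of the receptors per kilobase, a mean raised by 1 mouse, and ranged from 18.9 CPM in Eµ-PRMT5/TCL1 mouse 3 to 1251 CPM in Eµ-PRMT5 mouse 2, the mouse with the highest Rgs1.

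The lists downstream of the receptors were short, and at the shares of all tested genes (0.957% as higher, 1.21% as lower) a count near 0 is expected in each. Of 5 tested receptor kinases and arrestins, 0 reached an unadjusted p under 0.05 in either direction (median 0.10, most abundant per kilobase Grk6). Of 15 tested effectors, 0 did so (median 0.20, most abundant per kilobase Arhgef1, an exchange factor driven by Gα13). Of 6 tested other Gα regulators, 0 did so (median 0.05, most abundant per kilobase Ric8a). These 3 medians are log2 fold changes from edgeR, beside -0.09 for all tested genes.

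Immediate early and activation genes were listed because Rgs1, Rgs2 and Rgs16 can be induced by receptor signals. Of 19 tested, 0 were higher and 1 was lower at an unadjusted p under 0.05 (0.957% and 1.21% over all tested genes), the early activation marker Cd69 (log2 fold change -0.95, standard error 0.43), with a median of 0.09. Cd83 was the most abundant per kilobase. The Eµ-TCL1 mouse was above the other 7 for 3 of the 19 and below them for 4, against 21.3% and 14.2% of all tested genes, and nothing is read from these counts. Those above, named here after their values were seen, were Egr1 (895 CPM, others 69.2 to 564), Ier2 (693 CPM, others 278 to 587) and Dusp5 (58.9 CPM, others 4.56 to 52.2). Those below were Fosb, Jun, Dusp1 and Cd83.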

How the data were processed

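Bulk RNA-seq of splenic B cells from 8 mice was used, with genotypes from the labels. Per mouse, the authors deposited raw read counts for each gene symbol. The methods describe SMARTer preamplification, Nextera XT libraries and the CLEAR workflow, whereas the labels describe a TruSeq stranded kit. The submitters' processing notes name GRCm38, featureCounts (Subread) and DESeq2 1.20.0. The aligner, annotation, strand setting and meaning of NA are not given in the sources used here. Symbols with NA in any library were left out (10830 of 24902).

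The members and gene lists were chosen with earlier results of these data known. The text names all members and RGS symbols, the genes of lowest p or highest level per list, and the genes most like Rgs16. Some listed genes are not reported here by name, but the sums hold every gene of a list with a value in all libraries. In edgeR 4.0.16 (R 4.3.3), 1 model over 8 mice with TMM factors and the expression filter was fitted to 13173 genes, with Benjamini-Hochberg adjustment. The biological coefficient of variation was 0.483. The code was tested on simulated data, and its requirement on recovered genes was loosened after a first failure at the limit. Alternatives were DESeq2 1.42.0, other scalings, filters, samples and pseudocounts, a replicate block, NA as 0, and each mouse left out. Positions and transcript lengths are from GENCODE vM21. Counting error is largest for members near 10 counts.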

Additional observations from a re-analysis of the deposited data

Results flagged for a closer look

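In 22 sets of values over the 4 Eµ-PRMT5 mice (RGS genes and marker sums), 3 had 1 mouse whose gap to the nearest of the others was a larger share of the range than Dixon's limit allows. For normally distributed values chance gives about 1 in 20, or 1.1 of the 22. The limit was applied to CPM without a log scale, which need not be normal. The T and NK cell flags also come from the same mouse. The 3 flags are therefore not read as more than chance gives. Rgs13 was 48.08 CPM in Eµ-PRMT5 mouse 4, where the other 3 mice of the group lay between 1.11 and 8.21 CPM. The summed T cell markers were 451.1 CPM in Eµ-PRMT5 mouse 3, where the others lay between 119 and 132.5 CPM. The summed NK cell markers were 355.8 CPM in the same mouse 3, where the others lay between 32.9 and 39.2 CPM. Rgs14, Rgs11 and Rgs12 were also highest in Eµ-PRMT5 mouse 3, and the part of T and NK cells in this was not tested. Eµ-PRMT5 mice 3 and 4 are the mice L31 and L32, whose histology differed in the study. The part of that difference in the flagged values was not tested.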

How the results depend on the processing

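Of 143 log2 fold changes of RGS genes under other settings (Eµ-PRMT5/TCL1 against Eµ-PRMT5), 137 kept their direction and none passed the adjusted threshold, the smallest adjusted p being 0.173 (Rgs13, DESeq2). The other 6 changed sign, all with 1 mouse left out. With each mouse left out in turn, the log2 fold change lay from -0.573 to 0.229 for Rgs2, -0.319 to 0.244 for Rgs3, -0.609 to 0.0602 for Rgs10 (also 0.0239 without Eµ-PRMT5/TCL1 mouse 2), -0.55 to 0.30 for Rgs16 and -0.0219 to 0.312 for Rgs19. Rgs13 had an unadjusted p under 0.05 in 12 of 15 other settings and no value where 10 counts were required in every sample, and Rgs18 in 9 of 16. Of 135 log2 ratios of the Eµ-TCL1 mouse to a group mean, 128 moved by less than 1 SD of the group and 2 changed sign, both for Rgs1 against Eµ-PRMT5/TCL1 mice.

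Past both thresholds, DESeq2 called 3 genes higher and 1 lower where edgeR called 0 and 0. At an unadjusted p under 0.05 DESeq2 gave 248 lower, and NA counted as 0 gave 209 higher. With each mouse left out, 77 to 424 genes were higher and 66 to 368 lower. The counts were 424 and 347 without Eµ-PRMT5 mouse 3, 392 and 368 without Eµ-PRMT5 mouse 4, 83 and 66 without Eµ-PRMT5/TCL1 mouse 2, and 77 higher without Eµ-PRMT5/TCL1 mouse 1. Upper-quartile scaling put 57.4% of these genes on the higher side, against 44.1% with TMM. The cause was not tested.

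The replicate numbers join different animals, and the deviations of same-numbered mice correlated at 0.0213, 0.106 and 0.162, so they were not read as pairs. With a replicate block over 6 mice, an unadjusted p under 0.05 was reached by 495 higher and 331 lower genes, against 374 and 368 for the same 6 mice unblocked. Rgs13 was at -1.33 blocked and -1.60 unblocked, with an unadjusted p over 0.05 in both. Rgs18 was at 1.66 and 1.44, under that p with the block only. The depth limits Rgs13 most, with 6 to 12 counts in the Eµ-PRMT5/TCL1 mice.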

Other observations

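Of the 8 RGS symbols that lack a value in some libraries, Rgs6, Rgs7, Rgs8, Rgs17 and Rgs22 were highest in the Eµ-TCL1 mouse. Rgs4, Rgs5 and Rgs21 were not. Among all tested genes, 21.3% were highest in that mouse. Tested genes have a value in every library, so that share is not the background for these 8 symbols. The share among symbols that lack a value was not computed, and nothing is read from these maxima. Its library had the most symbols with a value, 21475, and the lowest total count, 3356297. Rgs7 measured 17.0 CPM in the Eµ-TCL1 mouse, where 6 other mice with a value had between 2.77 and 7.29 CPM. Rgs22 measured 24.3 CPM in the Eµ-TCL1 mouse, where 6 others had between 3.34 and 14.1 CPM. Rgs17 measured 15.7 CPM there and between 2.19 and 10.01 CPM in 5 others. Rgs4 measured 2.43 CPM there, inside the range of 5 others (0.577 to 3.43 CPM). Rgs6 and Rgs8 had a value in 2 libraries each. Rgs6 was 13.5 CPM in the Eµ-TCL1 mouse and 3.23 CPM in Eµ-PRMT5 mouse 4, and Rgs8, the neighbour of Rgs16 on chromosome 1, was 8.38 CPM and, in Eµ-PRMT5/TCL1 mouse 2, 3.00 CPM. Rgs5 (1.54 to 3.72 CPM in 4 mice) and Rgs21 (0.328 CPM in 1 mouse) had no value in the Eµ-TCL1 mouse.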
